A study of Homo sapiens with 4 samples.

Results

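The MYC, MAX and MXD network is a set of basic helix-loop-helix leucine zipper transcription factors that compete for shared dimerisation partners. The genes considered were the MYC family (MYC, MYCN and MYCL), the common partner MAX, the repressors MXD1, MXD3, MXD4, MXI1 and MNT, and MLX, a MAX-like protein. Members were taken as the probe sets that the array's annotation assigns to exactly 1 of these genes. That gave 31 probe sets for 9 of the 10 genes, among 19775 genes and 54613 probe sets tested. MXD4 had no such probe set, since the 3 probe sets that list it list a microRNA gene as well.

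The cells were PC3, an established human prostate cancer line, which was grown in medium with serum and transfected with siRNA duplexes at 40 nM. RNA was taken 48 h later. One group received a control siRNA (2 arrays) and the other a COUP-TFII siRNA (2 arrays), directed at a nuclear receptor and transcription factor whose ligand is not settled. Both groups therefore were transfected, and an untransfected group was not analysed here. The labels do not say whether the replicates are separate transfections, so the spread behind each p-value is that of these arrays and could be technical. The labels give neither the siRNA sequences nor how many duplexes were used.

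MYC binds E-box DNA only as a dimer with MAX and then activates genes of ribosome production, nucleotide synthesis and cell growth. MXD proteins, MXI1 and MNT also dimerise with MAX, bind the same E-boxes and recruit the SIN3 corepressor, so they oppose MYC. MLX takes the place of MAX in dimers with the glucose-responsive factors MLXIP (MondoA) and MLXIPL (ChREBP), and it can also pair with MXD1, MXD4 and MNT. In prostate cancer, MYC is known as a frequently overexpressed oncogene.

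E-boxes lie upstream of some of the network's own genes. The RefSeq promoter table (GRCh38.p14) held 12 start sites of 9 members. It held no start site of MYC, so MYC was not searched. The 250 bases before each start site were searched for CACGTG, the E-box preferred by MYC and MAX. That motif reads the same on both strands. It was found upstream of MNT, MLX and MXD4, at 3 of the 12 start sites, and in 6.34% of all 35116 start sites of the table. The looser E-box CANNTG, which includes CACGTG, was in 61.8% of them. The upstream sequences of the repressors whose transcripts changed, and of MLX, which holds the motif and did not pass the test, are shown 5′ to 3′ on the gene's strand, with CACGTG in capitals.
MNT, chr17:2401061-2401310, minus strand: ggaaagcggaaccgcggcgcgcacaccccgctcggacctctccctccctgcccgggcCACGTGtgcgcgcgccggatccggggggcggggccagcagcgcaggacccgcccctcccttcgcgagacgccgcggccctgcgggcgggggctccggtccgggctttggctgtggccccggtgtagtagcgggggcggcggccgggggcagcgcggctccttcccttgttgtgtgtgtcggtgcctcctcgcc
MLX, chr17:42566850-42567099, plus strand: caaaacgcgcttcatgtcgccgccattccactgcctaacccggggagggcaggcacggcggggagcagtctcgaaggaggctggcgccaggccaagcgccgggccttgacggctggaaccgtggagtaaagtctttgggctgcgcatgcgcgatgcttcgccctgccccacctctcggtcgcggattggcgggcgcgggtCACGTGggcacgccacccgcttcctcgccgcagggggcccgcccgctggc
MXI1, first of 3 start sites, chr10:110207355-110207604, plus strand: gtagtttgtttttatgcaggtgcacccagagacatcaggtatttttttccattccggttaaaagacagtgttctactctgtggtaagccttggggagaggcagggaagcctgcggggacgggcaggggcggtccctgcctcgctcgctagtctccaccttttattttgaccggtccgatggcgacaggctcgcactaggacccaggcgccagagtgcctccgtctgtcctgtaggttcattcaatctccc
MXD3, chr5:177312753-177313002, minus strand: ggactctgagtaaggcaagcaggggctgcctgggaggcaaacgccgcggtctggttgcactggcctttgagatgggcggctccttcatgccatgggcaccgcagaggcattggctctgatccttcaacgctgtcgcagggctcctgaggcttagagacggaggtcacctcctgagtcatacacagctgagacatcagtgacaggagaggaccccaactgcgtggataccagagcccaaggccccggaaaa
The motif starts 193 bases before the MNT start site and 50 bases before that of MLX. It is not in the windows shown for MXI1 and MXD3, which contain 1 and 2 matches to CANNTG.

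In the comparison of COUP-TFII siRNA with control siRNA, MYC fell, the repressor MXD3 fell, and the repressors MXI1 and MNT rose. The partner MAX rose slightly. MYCN, MYCL, MXD1 and MLX did not pass the test. Of the 9 genes, 3 rose and 2 fell at an adjusted p under 0.05 (limma, Benjamini-Hochberg over all genes), beside 23.0% of all genes that passed (12.7% higher and 10.3% lower). The groups did not overlap for 6 of the 9 genes, and for 57.5% of all genes. These shares depend on dim genes, few of which passed. Among genes with a mean intensity of at least 64, 40.5% passed in the same fit (22.4% higher and 18.1% lower). Of the 8 network genes at that level, 5 passed. The groups did not overlap for 74.8% of genes at that level, and for 6 of those 8. When the model was refitted on all genes at that level, 51.9% passed, and again 5 of the 8. The median log2 fold change was 0.09 over the 9 genes and 0.01 over all genes. All changes are differences of log2(intensity + 16), which understates changes of dim probe sets. These are whole-culture RNA values, in which fewer cells of a type and less RNA per cell cannot be told apart.

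**Figure D1:**
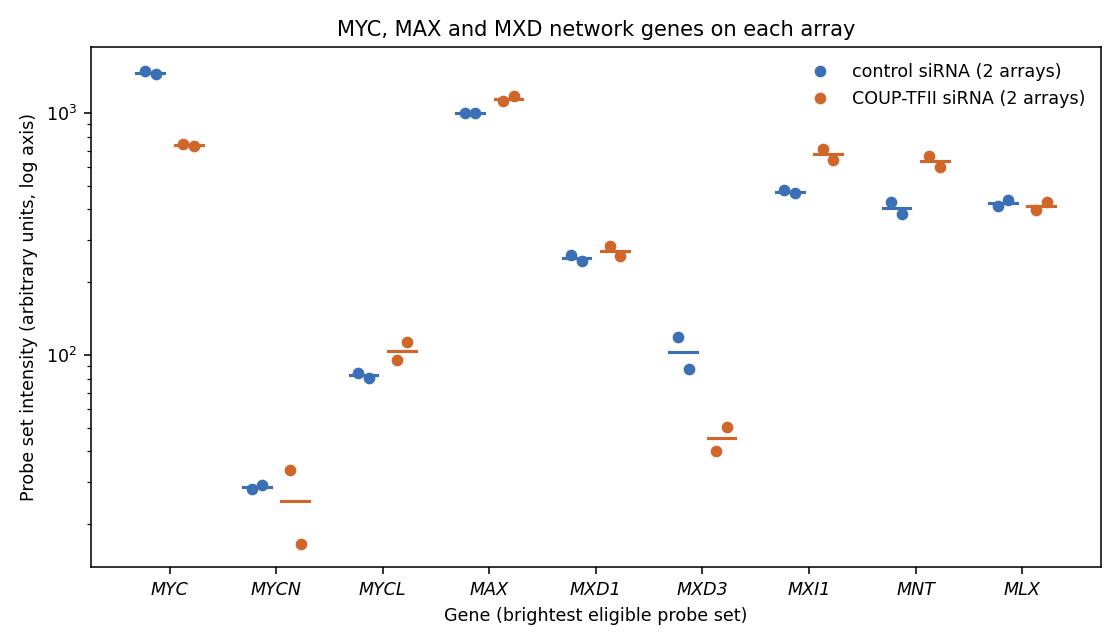
Probe set intensity in arbitrary units (log axis) for each of the 9 measured network genes, with points for the 2 arrays of each group and a bar at their mean. MYC falls from a mean of 1473 to 741 and MXD3 from 103 to 45.4, while MXI1 and MNT are higher on both COUP-TFII siRNA arrays than on either control array; heights of different genes come from different probes and are not comparable.

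MYC, the growth-promoting member of the family that is broadly expressed, had intensities of 1495 and 1451 on the control arrays. On the COUP-TFII siRNA arrays it read 746 and 735. Both treated arrays lay far below both controls, and the replicates differed little. The log2 fold change was −0.98 ± 0.06 (SE), with a 95% interval from −1.11 to −0.84 and a limma adjusted p of 9.18e-06. By size it was number 358 among the 2039 genes that fell. MYC had 1 single-gene probe set, so no second probe set bears on it. MYC fell in all 14 alternative settings fitted for genes, by at least 0.87, and passed in each of them (highest limma adjusted p = 0.0198).

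The genes whose profile over the 4 arrays was most like that of MYC were SLC25A15, a mitochondrial ornithine carrier, PRAG1, a pseudokinase, and ANKRD46. Likeness was the Euclidean distance between gene-centred log2 values, which was 0.0305, 0.0323 and 0.0364. Their log2 fold changes were −0.98, −0.95 and −0.94. Since 4 arrays in 2 groups define the profile, this says little more than that the falls were of like size.

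MYCN, the family member known from neural tissue and neuroblastoma, was at the dim end of the arrays. Its 10 probe sets ranged up to 33.4, with a mean under 64 for each, and 0 of them passed (limma; 0 also at an unadjusted p under 0.05). On its brightest probe set it read 28.0 and 28.9 on the control arrays and 33.4 and 16.6 on the COUP-TFII siRNA arrays. The treated values lay on either side of the controls, and the interval of the log2 fold change ran from −0.71 to 0.42. A change of MYCN was not detectable at this signal.

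MYCL, the third member of the family, read 84.7 and 80.6 on the control arrays and 95.5 and 113 on the COUP-TFII siRNA arrays. The treated arrays were both higher, but the log2 fold change of 0.28 ± 0.16 (SE) did not pass (limma adjusted p = 0.264). Its interval, from −0.08 to 0.64, includes both no change and a rise as large as that of MNT. The other MYCL probe set lay under 20 on every array.

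MAX, the partner with which MYC binds DNA, was higher by a small amount. The probe set that represents it read 1006 and 1002 on the control arrays and 1125 and 1173 on the COUP-TFII siRNA arrays. The groups did not overlap, and the log2 fold change was 0.19 ± 0.06 (SE, from limma, adjusted p = 0.0482). The call sits at the threshold. Removing any 1 array ended it: the limma adjusted p was 0.204 and 0.228 when control replicate 1 or 2 was left out, and 0.0832 and 0.156 when COUP-TFII siRNA replicate 1 or 2 was. In all, 8 of the 14 settings lost it, while centring on housekeeping genes raised the change to 0.30. All 5 MAX probe sets had positive log2 fold changes, from 0.09 to 0.32. When each probe set was tested as a feature of its own, the probe set at 885 and 955 in the controls and 1174 and 1126 after COUP-TFII siRNA passed (0.32 ± 0.06, SE, from limma, adjusted p = 0.0181), and the representative one did not (0.0756).

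Among the repressors with probe sets of their own, MNT had the largest rise. MNT is the broadly expressed MAX partner that occupies E-boxes in growing as well as resting cells. It read 431 and 383 on the control arrays and 668 and 601 on the COUP-TFII siRNA arrays. The lower treated array was well above the higher control. The log2 fold change was 0.62 ± 0.09 (SE, from limma, adjusted p = 0.00113), with an interval from 0.42 to 0.82. A second MNT probe set was dim, at 33.4 to 42.6 on all arrays, and did not follow (−0.12 ± 0.21, SE). Averaging both probe sets gave 0.25, which did not pass (limma adjusted p = 0.156).

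MXI1, an MXD family repressor known as a candidate tumour suppressor, read 482 and 467 on the control arrays. It read 711 and 642 on the COUP-TFII siRNA arrays, so both were higher than either control. The log2 fold change was 0.50 ± 0.08 (SE, from limma, adjusted p = 0.00194), with an interval from 0.32 to 0.67. Without control replicate 2 it was 0.47 and just missed the threshold (limma adjusted p = 0.0557). MXI1 had 1 probe set, and the array values do not tell its 3 annotated start sites apart.

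MXD3 moved the other way from MXI1 and MNT. It is the MXD protein known for expression in dividing cells during S phase, unlike MXD1 and MXD4, which are known from differentiating cells. It read 119 and 87.4 on the control arrays and 40.3 and 50.6 on the COUP-TFII siRNA arrays. The replicates spread more than for MYC, yet the groups stayed apart. The log2 fold change was −0.95 ± 0.20 (SE, from limma, adjusted p = 0.008), with an interval from −1.40 to −0.50. With 3 arrays the call was lost when control replicate 1 was left out (−0.76, limma adjusted p = 0.114), when COUP-TFII siRNA replicate 1 was (−0.83, 0.121) and when COUP-TFII siRNA replicate 2 was (−1.07, 0.0718). A pseudocount of 64 instead of 16 lowered the size to −0.61, still past the threshold. MXD3 also had only 1 probe set.

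MXD1, the founding MXD repressor, read 259 and 244 on the control arrays and 282 and 256 on the COUP-TFII siRNA arrays. The groups overlapped, and the log2 fold change of 0.09 ± 0.10 (SE) did not pass (limma adjusted p = 0.599; interval −0.14 to 0.32). Its other probe sets had log2 fold changes of −0.04 and −0.35, the latter on a dim probe set with a mean under 64.

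MLX read 412 and 437 on the control arrays and 398 and 429.9 on the COUP-TFII siRNA arrays. The groups overlapped, and the log2 fold change was −0.04 ± 0.08 (SE, from limma, adjusted p = 0.831). Its interval, from −0.23 to 0.16, ends below the values of MNT and MXI1. The 6 MLX probe sets pointed in different directions, from −0.33 for one at 169 and 191 in the controls and 152 and 129 after COUP-TFII siRNA, to 0.36 for a dim one, and 0 of 6 passed (limma; 1 had an unadjusted p under 0.05).

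Tested as separate features, 5 of the 31 probe sets passed, against 12.2% of all probe sets (6.51% higher and 5.67% lower). They were those of MYC, MXD3, MXI1 and MNT and 1 of MAX. Of the 31, 15 had a mean intensity under 64, including all 10 of MYCN. The groups did not overlap for 16 of the 31, and for 50.4% of all probe sets. Of the 16 with a mean of at least 64, 5 passed and the groups did not overlap for 11, beside 30.6% and 72.8% of all probe sets at that level, so the network's share was near the background. Refitted on those probe sets alone, 7 of the 16 passed, beside 46.6%.

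**Figure D2:**
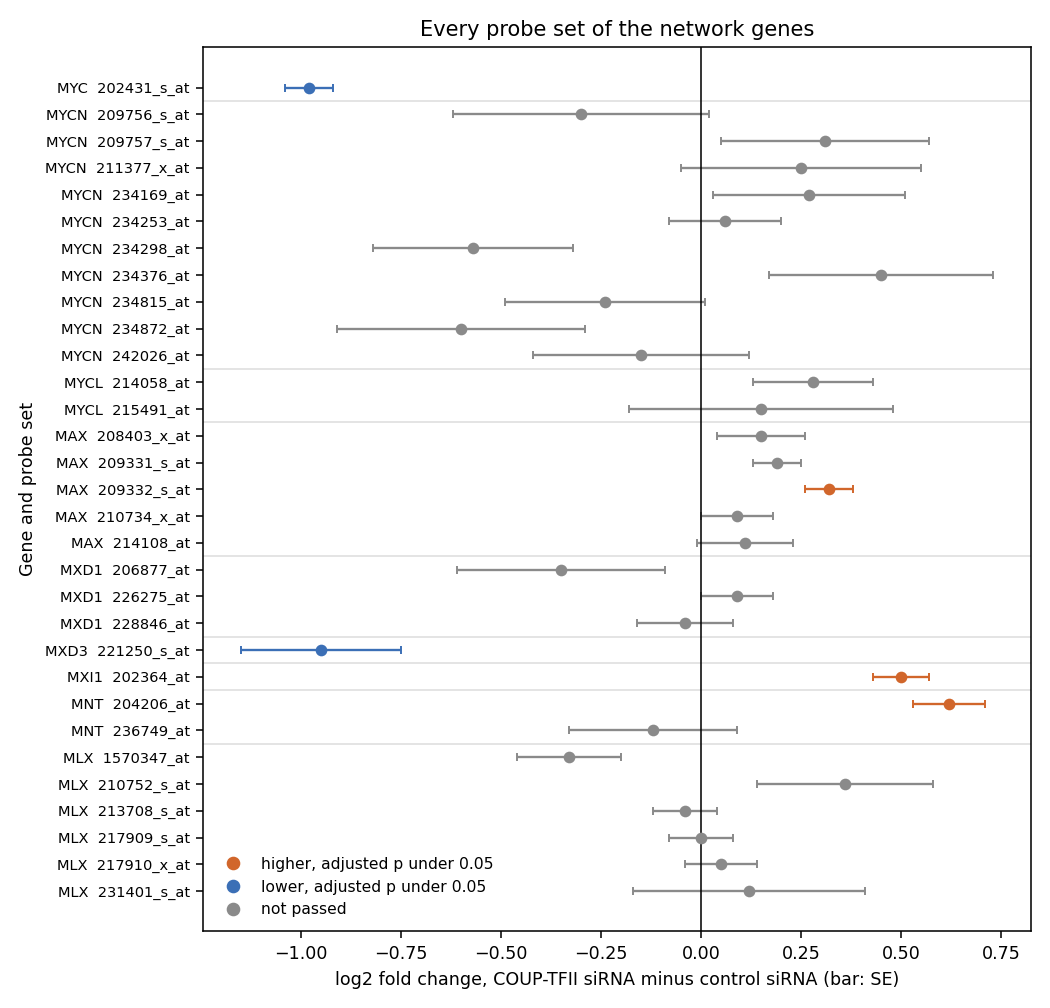
Log2 fold change (COUP-TFII siRNA minus control siRNA) of each of the 31 probe sets of the network genes, with bars for the SE from limma and colours for the 5 that passed an adjusted p of 0.05. MYC and MXD3 each rest on 1 probe set near −1, all 5 MAX probe sets lie to the right of 0, and those of MYCN and MLX scatter to both sides.

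Of the 3 further partners of MAX and MLX, 2 rose, beside 12.7% of all genes and 22.4% at a mean of at least 64. MLXIP, the partner of MLX that senses glucose phosphates, rose from 763 and 734 to 1066 and 1087, with a log2 fold change of 0.51 ± 0.06 (SE, from limma, adjusted p = 4.26e-04). Both treated arrays lay above both controls, and 2 of its 4 probe sets passed as higher when each was tested alone. With its probe sets averaged it was 0.33 and did not pass (limma adjusted p = 0.0739). MGA, a large repressor that also pairs with MAX, rose from 154 and 126 to 186 and 200.5. Its log2 fold change of 0.43 ± 0.13 (SE) was at the threshold (limma adjusted p = 0.0479) and was lost when any 1 of the 4 arrays was left out (0.0809 to 0.279). MLXIPL, at 18.5 to 28.2 on all arrays, did not pass (−0.15, limma adjusted p = 0.696).

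Cofactors and turnover factors of MYC moved in both directions. Of 22 measured genes, 5 rose, 4 fell and 13 missed the threshold, and the median log2 fold change was 0.05. These counts were near the shares among genes with a mean of at least 64, 22.4% higher and 18.1% lower. CIP2A, an inhibitor of the phosphatase that destabilises MYC protein, went from 223 and 207 to 111 and 111 (−0.86 ± 0.12, SE), and both of its probe sets passed as lower. CIP2A passed in all 14 settings. EP400, the chromatin remodeller of the TIP60 complex, rose from 143 and 143 to 215 and 231 (0.59 ± 0.11, SE). HUWE1, a ubiquitin ligase of MYC, rose from 945 and 702 to 1113 and 1268 (0.54 ± 0.12, SE). RUVBL1, an ATPase of the same remodelling complexes, went from 282 and 313 to 211 and 202 (−0.49 ± 0.10, SE). The groups did not overlap for these 4 genes, and for 74.8% of all genes with a mean of at least 64. Of the 4 calls, 3 depend on the arrays and probe sets used. EP400 and RUVBL1 missed the threshold when any 1 array was left out, and HUWE1 when any but control replicate 1 was. With probe sets averaged, EP400 was 0.30 and HUWE1 0.33 (limma adjusted p = 0.202 and 0.0576), and HUWE1 was 0.00 when its brighter _x_at probe set was allowed. The other calls were named after their values were seen. They were TRRAP, KAT5 and GSK3B among the rises (0.48, 0.43 and 0.39) and WDR5 and USP36 among the falls (−0.48 and −0.32). Tested alone, 0 of 5 probe sets of USP36 passed, and 1 of 2 for TRRAP and for WDR5. For KAT5 2 of 3 passed, and for GSK3B 3 of 5. With control replicate 1 left out, 3 genes of the list rose and 1 fell. With either COUP-TFII siRNA array left out, 1 rose and 1 fell, and without control replicate 2 only 1 gene passed, as lower.

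In the SIN3 corepressor, which MXD proteins, MXI1 and MNT recruit, 2 of 13 measured genes rose, 2 fell and 9 missed the threshold. Their median was 0.01. At a mean of at least 64, 22.4% of all genes rose and 18.1% fell. SUDS3, a subunit needed for the integrity of the complex, had the largest change of the list. It fell from 1292 and 1235 to 393 and 399.8 (−1.63 ± 0.07, SE, from limma, adjusted p = 1.75e-06), and both of its probe sets passed as lower. It passed in all 14 settings. RBBP7, a histone-binding subunit, had a log2 fold change of −0.28 ± 0.05, and missed the threshold when control replicate 1 or 2 was left out (limma adjusted p = 0.0766 and 0.0642) and after centring on housekeeping genes (−0.17). BRMS1, known as a metastasis suppressor, rose by 0.27 ± 0.07 and SIN3B, a scaffold, by 0.33 ± 0.10 (SE). Both of these rises were lost when any 1 array was left out. SIN3B passed on none of its 3 probe sets tested alone, and with them averaged it was 0.12 (limma adjusted p = 0.49).

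Textbook targets that MYC activates were mostly lower where they passed. The lists come from general knowledge and were not measured as targets in these cells. Over all genes 10.3% fell and 12.7% rose, and at a mean intensity of at least 64 these shares were 18.1% and 22.4%. Of 25 measured genes of ribosome biogenesis, 10 fell, 0 rose and 15 missed the threshold (limma; 11 were lower and 3 higher at an unadjusted p under 0.05). The median was −0.10. After centring on housekeeping genes, 6 were lower and 4 higher, and the median was 0.00. NIP7, a factor of ribosomal RNA processing, went from 626 and 639 to 412 and 373 (−0.67 ± 0.08, SE), with both probe sets lower. TCOF1, a cofactor of ribosomal RNA transcription, WDR43, a processing factor, and RRS1, an assembly factor, had log2 fold changes of −0.67 ± 0.12, −0.66 ± 0.07 and −0.57 ± 0.08 (SE). TCOF1 missed the threshold when control replicate 1 (limma adjusted p = 0.068) or COUP-TFII siRNA replicate 2 (0.0537) was left out, and was −0.43 with its probe sets averaged. With control replicate 1 or 2 left out 5 genes fell, with COUP-TFII siRNA replicate 1 left out 7, and with replicate 2 left out 6.

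Of 28 measured metabolic targets, 13 fell and 1 rose, beside 18.1% and 22.4% of genes with a mean of at least 64. The other 14 missed the threshold. The median was −0.22, and 8 were lower and 2 higher after that centring, with a median of −0.11. The gene that rose, named after its value was seen, was SHMT2 (0.19, limma adjusted p = 0.0453), a mitochondrial enzyme of serine metabolism. Of its 3 probe sets, 0 passed when tested alone. With probe sets averaged or with quantile normalization, 0 genes of this list passed as higher. The 4 genes with the largest changes are enzymes of nucleotide synthesis, while CAD, PPAT, IMPDH1, IMPDH2 and CTPS1 of the same list, also such enzymes and named after their values were seen, missed the threshold (−0.33 to −0.01). TYMS, thymidylate synthase, went from 2150.5 and 2245 to 833 and 888 (−1.34 ± 0.06, SE, from limma, adjusted p = 2.49e-06). With its 3 probe sets averaged it was −0.88. PRPS2, which makes the ribose phosphate precursor, had −0.77 ± 0.09 (SE), and the purine enzymes GART and PAICS had −0.65 ± 0.07 and −0.58 ± 0.06 (SE). GART passed on 1 of its 9 probe sets and missed the threshold with them averaged (−0.28, limma adjusted p = 0.135). With control replicate 1 or 2 left out, 7 or 6 genes fell.

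Of 26 measured targets in the cell cycle and translation, 13 fell and 1 rose, beside those same shares of 18.1% and 22.4%. The other 12 missed the threshold. The median was −0.20, and 7 were lower and 2 higher after that centring. CDC25A, a phosphatase that activates cyclin-dependent kinases, went from 329.7 and 328 to 96.5 and 116 (−1.50 ± 0.12, SE, from limma, adjusted p = 4.47e-05). Of its 3 probe sets, 2 passed as lower, and their mean with the other gave −0.87. PCNA, the sliding clamp of DNA polymerases, had −0.90 ± 0.06 (SE) and NME1, a nucleoside diphosphate kinase, −0.60 ± 0.05 (SE). The exception in direction was cyclin E1, CCNE1, which rose from 169 and 177 to 317 and 314 (0.81 ± 0.10, SE). CCNE1 did not pass with its 2 probe sets averaged (0.39, limma adjusted p = 0.0966). With control replicate 1 or 2 left out 6 or 5 genes fell, and with COUP-TFII siRNA replicate 2 left out 7.

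Genes known as repressed by MYC, or by MYC through its partner MIZ1, were split. Of 18 measured, 6 rose, 2 fell and 10 missed the threshold, and the median was 0.07. Among all genes 12.7% rose and 10.3% fell, and among those with a mean of at least 64, 22.4% and 18.1%. CDKN1A, the cell cycle inhibitor p21, went from 793 and 878 to 1979 and 1941. Both treated arrays lay far above both controls (1.22 ± 0.07, SE, from limma, adjusted p = 5.57e-06). CDKN1B, the inhibitor p27, went the other way, from 1208 and 1079 to 747 and 659 (−0.69 ± 0.08, SE). Both of these passed in all 14 settings. BTG1, an antiproliferative gene, rose by 0.32 ± 0.05 and CDKN1C, the inhibitor p57, by 0.31 ± 0.07 (SE). CDKN1C missed the threshold when any 1 array was left out, and BTG1 when control replicate 2 was (limma adjusted p = 0.0757). The other fall, named after its value was seen, was NDRG1 (−0.29 ± 0.04, SE), a stress-responsive gene. With any 1 array left out, 1 or 2 genes of the list rose, 1 of them with control replicate 2 left out and 2 with each of the others.

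Targets of MLX and MLXIP did not move together. Of 7 measured, 2 rose, 1 fell and 4 missed the threshold, and the median was −0.20. The shares over genes with a mean of at least 64 were 22.4% higher and 18.1% lower. TXNIP, an inhibitor of thioredoxin and glucose uptake that MLXIP activates, is in the MYC-repressed list as well. It rose from 1397 and 1318 to 1574 and 1627 (0.24 ± 0.06, SE, from limma, adjusted p = 0.018). PFKFB3, a regulator of glycolytic flux, rose from 516 and 467 to 699 and 665 (0.46 ± 0.08, SE). KLF10, a transcription factor, had a log2 fold change of −0.20 ± 0.06 (SE, from limma, adjusted p = 0.0492). TXNIP and KLF10 missed the threshold when any 1 array was left out, and PFKFB3 when control replicate 2 (limma adjusted p = 0.0646) or COUP-TFII siRNA replicate 1 (0.0586) was.

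**Figure D3:**
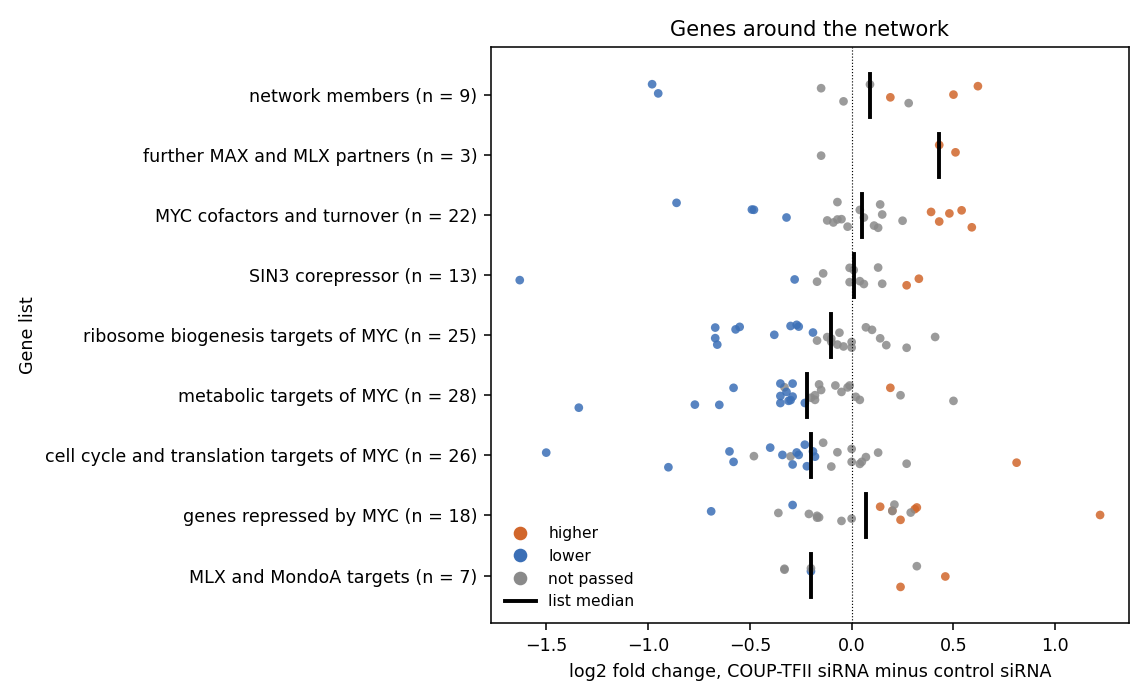
Log2 fold change (COUP-TFII siRNA minus control siRNA) of every measured gene in 9 lists around the network, coloured by whether it passed an adjusted p of 0.05 (limma), with a black bar at each list's median. The 3 lists of targets that MYC activates have medians of −0.10, −0.22 and −0.20, against 0.01 over all genes and −0.05 over housekeeping genes. After centring on housekeeping genes these 3 medians are 0.00, −0.11 and −0.10, against 0.12 over all genes and 0.06 over housekeeping genes. The cofactor and SIN3 lists have medians of 0.05 and 0.01 without that centring.

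The 4 arrays were alike in overall signal, with medians from 31.7 to 32.9, and their number limits the precision. Replicates correlated at r = 0.9871 and 0.9880 over probe sets on the log2 scale, against 0.9750 to 0.9793 between groups. For ACTB, the 3′ probe set read 1.52 and 1.83 times the 5′ one on the control arrays and 1.42 and 1.46 times on the COUP-TFII siRNA arrays. For this sign of RNA integrity the groups did not overlap. The controls differed more from each other than the lower one did from either COUP-TFII siRNA array. The part of RNA integrity in the results was not tested. For GAPDH the same quantity lay between 0.96 and 0.99 on all arrays. All 7 epithelial markers were bright, at 2024 to 9941, with sums of 41325 to 41698 in the control arrays and 42427 to 43206 after COUP-TFII siRNA. Within the list KRT7, KRT8 and KRT18 rose (0.36, 0.16 and 0.13), EPCAM, CDH1 and CLDN4 fell (−0.24, −0.30 and −0.23), and KRT19 did not pass. Of 5 prostate luminal markers, TMPRSS2 rose from 132 and 157 to 391 and 392, and KLK3, KLK2, ACP3 and FOLH1 were dim on every array. Of 6 fibroblast markers, COL1A1 rose from 599 and 540.3 to 962 and 949.6, and the list's sum was 702 to 793 in the controls and 1099.6 to 1115 after COUP-TFII siRNA. The other 5, dim but for LUM (54.0 to 85.3), did not pass (COL1A2 −0.17, COL3A1 −0.36, DCN −0.35, LUM −0.03 and PDGFRB 0.21). The list's median was −0.10. The sum of 5 endothelial markers was 199 to 208 in the controls and 232 to 286 after COUP-TFII siRNA. By limma 0 of them passed, with PECAM1 (0.32) and CDH5 (0.56) higher at an unadjusted p under 0.05, and VWF was at 1.76 or less on every array. The 4 neuroendocrine markers measured lay at 129 or less, with sums of 145 to 168 and 147 to 148, and 0 passed by limma (0 at an unadjusted p under 0.05). The part of these marker changes in the results was not tested. The 4 immune markers measured lay at 42.3 or less, with sums of 65.4 to 76.2 and 66.4 to 76.7. Of 22 housekeeping genes, 4 were higher (POLR2A, CHMP2A, SDHA and REEP5, from 0.16 to 1.04) and 3 lower (HPRT1, EMC7 and PGK1, from −0.77 to −0.26). Of all genes with a mean of at least 64, 22.4% were higher and 18.1% lower. The level of the targeted transcript is not reported here, so the siRNA labels were not checked against it.

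**Figure D4:**
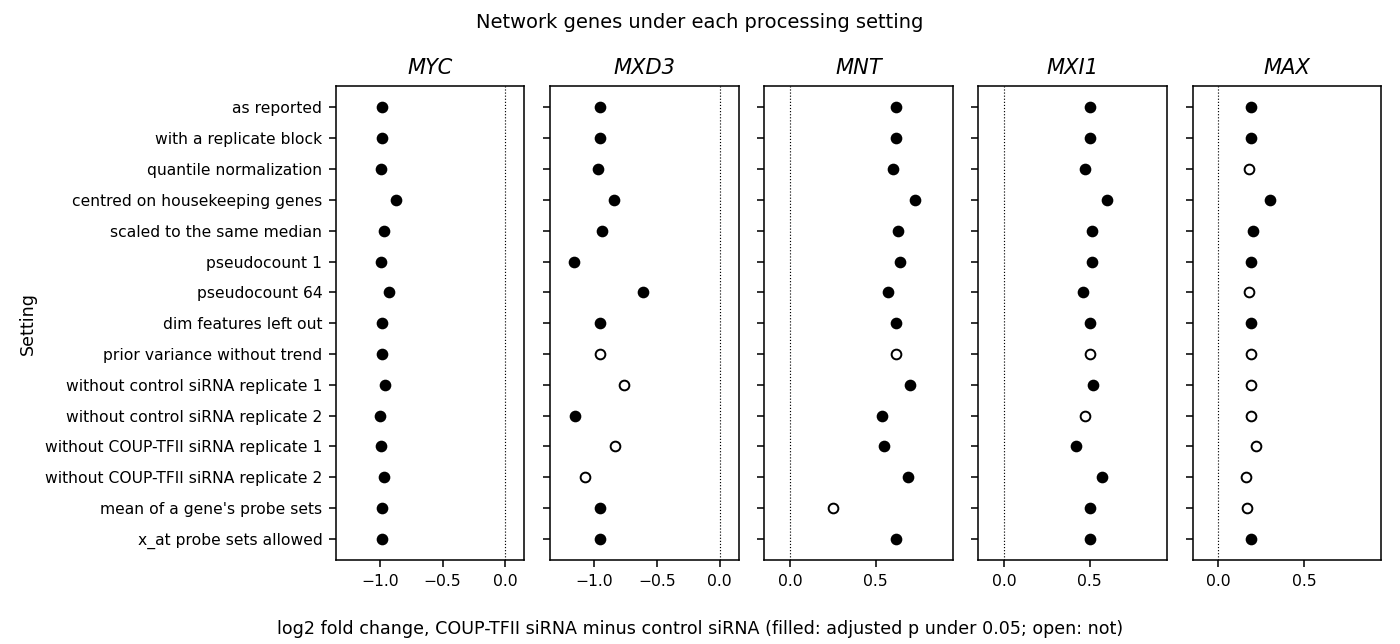
Log2 fold change (COUP-TFII siRNA minus control siRNA) of the 5 network genes that passed, under the reported setting and 14 alternatives, filled where the limma adjusted p was under 0.05. MYC is filled in every row, MXD3 is open for 3 of the 4 settings that leave out an array, and MAX is open in 8 of 14 alternatives.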

How the data were processed

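Biotin-labelled RNA was hybridised to 1-colour arrays. The authors deposited linear intensities, 1 per probe set and array, between 0.61 and 15890. How they were summarised and normalized is not given in the sources used here. Array medians differed by 3.66%, below a limit of 5%, so no scaling was added. Probe sets took genes from the platform annotation, with symbols updated by Entrez identifier for 41037 of 41091 single-gene probe sets. Each gene was represented by its brightest single-gene probe set over all 4 arrays, without _x_at probe sets where it had another. Groups were compared on log2(intensity + 16) with limma 3.58.1 (R 4.3.3; eBayes with an intensity trend, Benjamini-Hochberg, threshold 0.05), over 19775 genes and separately over 54613 probe sets. The fit over genes had 8.78 degrees of freedom after moderation. Its prior had 6.78, and that of the fit over probe sets had 5.11. The fit over genes was also run on simulated data, in which 11 of 211 calls were false. The simulated spread depended on intensity alone, so gene-to-gene differences in spread were not tested. Figures used matplotlib 3.10.9.

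Named are all members, up to 4 genes with the largest change among those passing in each other list, the further partners, and the 3 genes nearest MYC. Members and lists were chosen with earlier results of these data known. No list was tested as a set. Some list genes are not analysed here. Alternatives covered the replicate block, normalization, pseudocount, dim probe sets, prior variance, threshold, probe set choice and each array left out.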

Additional observations from a re-analysis of the deposited data

How the results depend on the processing

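With 2 arrays a group, the counts rest on the estimate of the spread. With 1 prior variance for all genes in place of the intensity trend, limma passed 1568 genes rather than 4558 and 527 probe sets rather than 6648, 1 network gene (MYC) rather than 5 and 0 network probe sets rather than 5 (5 at an unadjusted p under 0.05). At a threshold of 0.01, 2768 genes, 3400 probe sets and 3 network probe sets passed. Averaging a gene's probe sets left 3 network genes. With 1 array left out, 1824 to 2348 genes, 3 network genes, 752 to 2382 probe sets and 1 to 2 network probe sets passed. Housekeeping centring moved the all-gene median from 0.01 to 0.12 and the share of higher calls from 55.3% to 72.9% (73.1% of probe sets, from 53.5%), and changed no network gene's call. The replicate block passed 5126 genes and 7866 probe sets, with 5 network genes and 5 network probe sets, and changed no call of a network gene. Without dim genes the prior had 227 degrees of freedom rather than 6.78, so p-values of that setting rest almost wholly on the pooled spread. Over probe sets with a mean of at least 64, deviations of same-numbered arrays correlated at 0.0394. No label says that the numbers pair the arrays.

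Directions turned only for network values that had not passed. For genes, MLX was 0.07 with housekeeping centring and 0.03 with averaged probe sets, and MXD1 was −0.10 with averaged probe sets. With 1 array left out, MLX ran from −0.09 to 0.02 and MYCN from −0.45 to 0.15. For probe sets, the brightest of MLX and the second of MXD1 were both 0.07 with housekeeping centring, and another of MLX was −0.03 with quantile normalization. With 1 array left out, MLX probe sets ran from −0.09 to 0.02, −0.01 to 0.02 and −0.27 to 0.50, 1 of MXD1 from −0.19 to 0.11, 1 of MYCL from −0.33 to 0.63, and 3 of MYCN from −0.72 to 0.11, −0.10 to 0.60 and −0.45 to 0.15. The cause was not tested. The lists and the genes named from them went through the same settings, a step added after seeing the data. Over 15 alternatives the genes lower numbered 3 to 11 in ribosome biogenesis, 4 to 17 in metabolism and 4 to 14 in cell cycle and translation.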

Other observations

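The 3 probe sets listed for both MXD4 and the microRNA gene MIR4800 cannot be assigned to either gene and are in no count above. In the fit over all probe sets, the first went from 56.6 and 56.6 on the control arrays to 119 and 117 on the COUP-TFII siRNA arrays, a log2 fold change of 0.88 ± 0.14 (SE, from limma, adjusted p = 0.00776). The second went from 181 and 178 to 290.3 and 318 (0.71 ± 0.09, SE, from limma, adjusted p = 0.00309). The third, of the _x_at class open to cross-hybridisation, went from 281 and 312 to 340.1 and 378 and did not pass (0.26 ± 0.09, SE, from limma, adjusted p = 0.137). All 3 were higher on both COUP-TFII siRNA arrays than on either control array. The groups did not overlap for 50.4% of all probe sets and 72.8% of those with a mean of at least 64. These 3 probe sets were looked at after the values of the network had been seen.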
